A study of Homo sapiens with 8 samples.

Results

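The genes described here are the interleukins, the chemokines and the receptors for both, in myeloma cells given an inhibitor of the NF-κB pathway. Members were chosen by name: a symbol of IL plus a number, or CCL, CXCL, CCR or CXCR plus a number, in the array's gene annotation. Of 96 such genes, 94 had values on 4 or more of the 8 arrays, among 4333 named genes that did so. CXCR3, with 3 values, and IL12B, with 2, fell just outside the limit, and 8 members with 4 values lay just inside it. The rule itself used no ratio, but it was set with earlier results of these data known. They comprised 20 interleukin ligands, 28 chains of interleukin receptors, 33 chemokine ligands, 11 chemokine receptors, and IL1RN and IL36RN, which are natural antagonists that bind interleukin receptors without starting a signal.

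The cells were L363, a human multiple myeloma line labelled as coming from bone marrow, so every array samples the same line. They were treated at 37 °C with MLN120B, a small-molecule inhibitor of the kinase IKKβ, at 12.5 µM for 8 h (2 samples), 12 h (3 samples) or 24 h (3 samples), or with the solvent DMSO as control. Each sample was hybridised to a 2-colour array against the DMSO control, with the treated RNA in Cy5 and the control RNA in Cy3. The dyes were never swapped, so a dye effect and a drug effect cannot be told apart. The labels speak of 3 time courses, and nothing in them says that samples came from separate cultures, so every p-value measures only the spread between these samples.

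Interleukins and chemokines are secreted proteins through which blood and stromal cells signal to each other. Most interleukin receptors pair a chain that recognises the ligand with a shared chain that recruits JAK kinases, which in turn activate STAT transcription factors, while chemokine receptors couple to G proteins and steer cell movement. NF-κB, which IKKβ releases from its inhibitor, is a textbook activator of many interleukin and chemokine genes, and IL6 and CXCL12 from the bone marrow stroma are known signals for survival and homing of myeloma cells.

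All values below are log2 ratios, which the series does not state but which are likely to run as MLN120B over DMSO, so that a value below 0 is lower in treated cells. A ratio carries no level of expression, and a gene with a ratio near 0 may be expressed or not. Arrays held values for 6344 to 13007 features. By the identifiers in their labels they fall into 3 runs of a database, and the 3 arrays of run 2 (8 h sample 2, 12 h sample 1 and 24 h sample 1) spread widely, with a standard deviation over features of 1.00 to 1.42 against 0.21 to 0.28 in run 3 and 0.35 to 0.58 in run 1. Among the 9 plasma cell markers tested, the median of the means was 0.22, and array medians ran from -0.01 to 0.47. Array medians include markers that had a value but were not tested. They ran from -0.26 to 0.58 for T cell markers (9 with a value, 8 tested). For myeloid markers (6 with a value, 4 tested) they ran from -1.60 to 0.78, and for stromal markers (6 with a value, 3 tested) from -0.30 to 0.75. None of these markers passed the test, and their part in any result below was not tested; ratios cannot say whether such markers are present.

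No interleukin, chemokine or receptor gene passed the test at any time. Of the 94 genes, 62 were measured on 2 or more arrays of every time and could be tested; 32 could not. In limma, with Benjamini-Hochberg adjustment over all 5411 rows, 0 of the 62 had an adjusted p under 0.05 for the mean over the 3 times, at 8 h, 12 h or 24 h, or for any difference between times, and in each of these 7 comparisons the share of all rows called was 0%. The smallest adjusted p of a member in the mean over times was 0.87. Without 8 h sample 1, which left 1 array of run 2 at that time, 3 members (CCL4, CCR1 and IL10) and 131 of all rows were called at 8 h. At an unadjusted p under 0.05, the mean over times had 2 members lower (IL2RG and IL27RA) and 0 higher, beside 1.72% of all rows lower and 1.68% higher. At 8 h there were 0 lower and 3 higher (IL10, IL3RA and IL18RAP), beside 0.943% and 1.46% of rows. At 12 h there were 2 lower (IL2RG and IL12A) and 0 higher, beside 1.81% and 1.26%. At 24 h there were 4 lower (IL27RA, IL2RG, CXCR4 and CXCL2) and 1 higher (CCL1), beside 1.48% and 0.536%. For 24 h minus 8 h there were 0 lower and 2 higher (CCL1 and IL6R), beside 0.462% and 0.351%. IL18RAP, CXCR4 and CXCL2 fall outside the naming rule and are named after their values were seen.

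As a set the members sat where all rows sat. The median of their means over times was -0.01 against -0.01 for all rows, 33 of 62 lay below 0 (53.2%, against 51.6% of rows), and the median size was 0.11 against 0.14. By role, the median was 0.05 in the 14 tested interleukin ligands, 5 of them below 0, and -0.06 in the 22 tested receptor chains, 13 below 0. It was 0.01 in the 20 tested chemokine ligands, 10 below 0, and -0.01 in the 5 tested chemokine receptors, 4 below 0. IL1RN was the single antagonist tested.

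**Figure D1:**
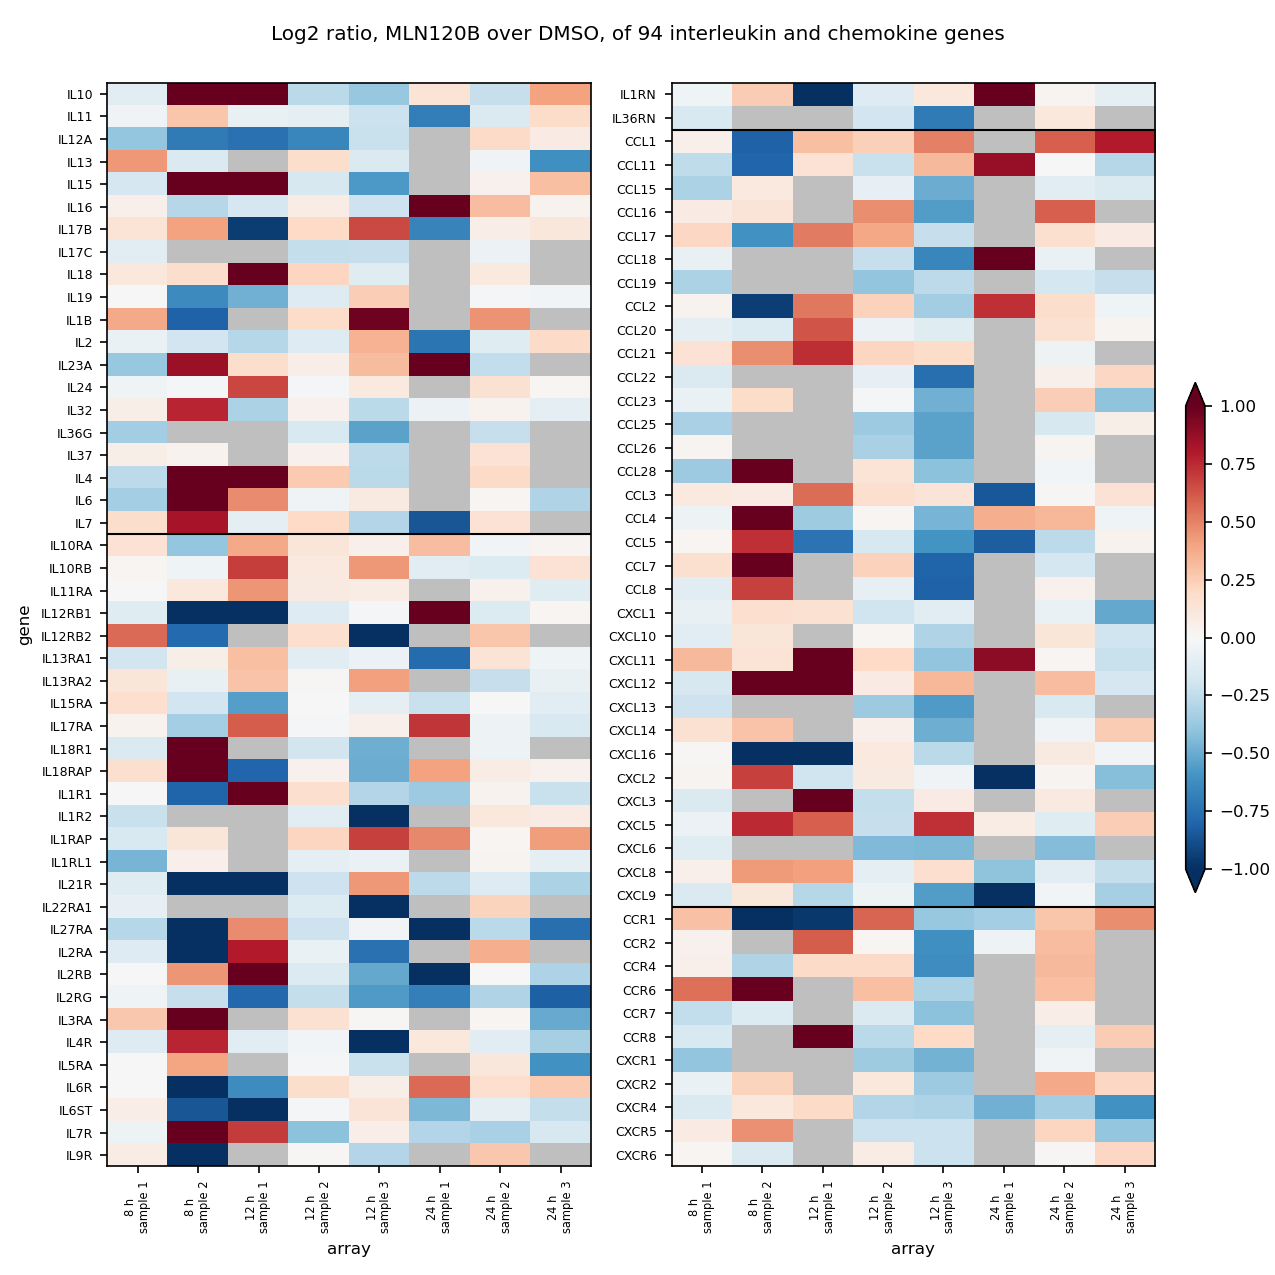
Log2 ratio of each of the 94 genes (rows, grouped by role, with a line between groups) on each of the 8 arrays (columns); red is above 0, blue below 0, grey has no value. IL2RG is blue on all 8 arrays, and grey fills most of 24 h sample 1, where 40 of 94 genes had a value.

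Among the receptor chains, IL2RG lay below 0 on every array. IL2RG encodes the common γ chain, the shared signalling chain of the receptors for IL2, IL4, IL7, IL9, IL15 and IL21. Its ratio was -0.04 and -0.23 at 8 h, -0.79, -0.24 and -0.57 at 12 h, and -0.68, -0.30 and -0.81 at 24 h. Both 8 h arrays lay closer to 0 than any 12 h or 24 h array. The mean was -0.42 ± 0.13 (SE, n = 8) over the 3 times, -0.53 ± 0.21 at 12 h and -0.60 ± 0.21 at 24 h, with limma adjusted p of 0.87, 0.93 and 1.0. The difference of 24 h from 8 h was -0.46 ± 0.33, with an adjusted p of 0.99, and within run 2 and run 3 it was -0.45 and -0.26. IL2RG was the only member below 0 on all 8 arrays among the 35 with 8 values, beside 1.3% of rows with 8 values. None of the 35 was above 0 on all 8, beside 1.39%. IL2RG belongs to the NF-κB signature that the study's authors derived in part from these arrays, so its direction is not independent evidence.

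The array carried 5 features for IL2RG, and each had all 8 values. Their means over arrays were -0.53, -0.39, -0.21, -0.49 and -0.68, so each probe averaged below 0. They differed on single arrays: at 24 h sample 1 they ran from -2.22 to 0.16, and at 24 h sample 2 from -0.73 to 0.45. At 24 h sample 3 they lay together, between -0.91 and -0.72.

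**Figure D2:**
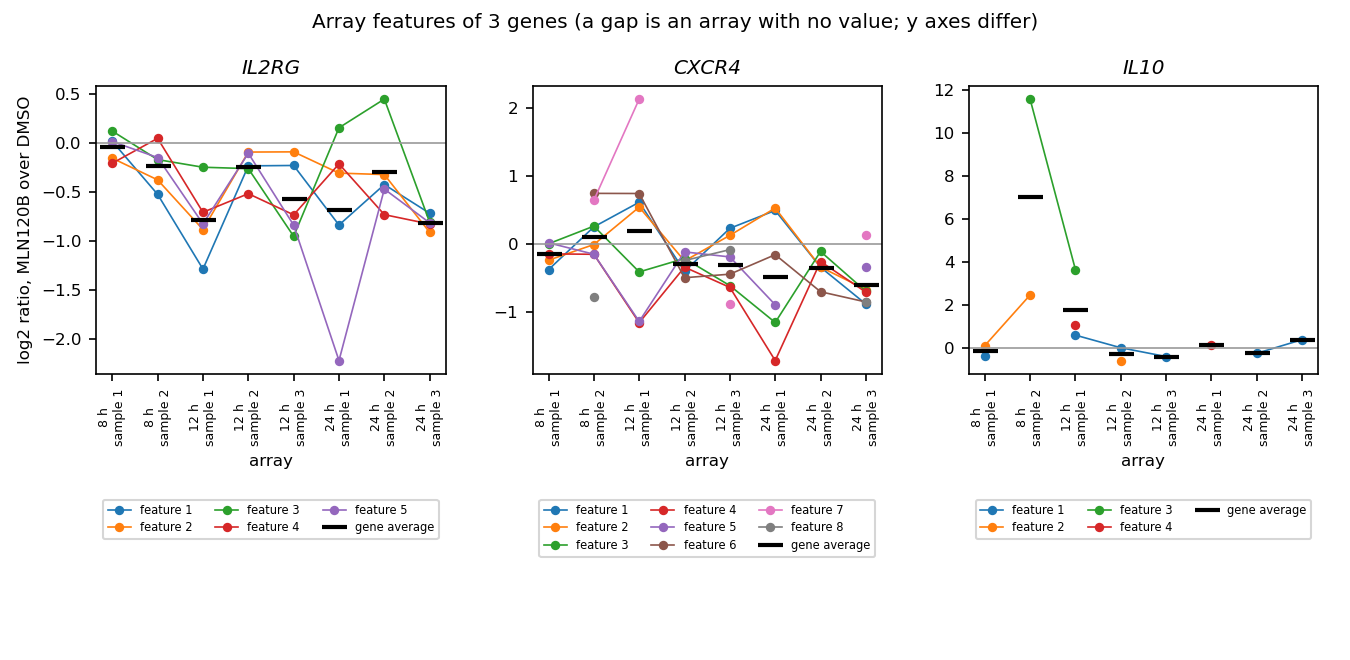
Log2 ratio (vertical axis, a different range in each panel) of every feature of IL2RG, CXCR4 and IL10 on the 8 arrays (horizontal axis), with the gene's average as a black bar. IL2RG's 5 features mostly lie below 0, CXCR4's 8 features lie on both sides, and IL10's average of 7.04 at 8 h sample 2 rests on 2 features, at 11.60 and 2.48.

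Of the chains that pair with the common γ chain, none lay below 0 on all 8 arrays. IL21R, the receptor chain for IL21, had values of -0.12 and -1.37 at 8 h, -1.72, -0.21 and 0.44 at 12 h, and -0.26, -0.13 and -0.32 at 24 h. It lay below 0 on 7 of 8 arrays, with the lowest values on 2 arrays of run 2, and its mean was -0.49 ± 0.24 (SE, n = 8). IL2RB, the β chain used by IL2 and IL15, ran from -2.21 at 24 h sample 1 to 1.99 at 12 h sample 1, both in run 2. The value of 1.99 averages a feature at 4.23 and another at -0.25, and the value of -2.21 rests on a single feature. IL4R (-1.37 to 0.76), IL7R (-0.41 to 1.21) and IL15RA (-0.55 to 0.17) lay on both sides of 0. IL2RA, the α chain of the high-affinity IL2 receptor, had 6 values from -1.82 to 0.79 and was not tested, as was IL9R with 5 values from -1.37 to 0.27. Of the ligands, IL15 was at 1.67 at 8 h sample 2 and 3.35 at 12 h sample 1 and between -0.58 and 0.30 on the other 5 arrays with a value. Each of its high values rests on a single feature, and the feature at 3.35 had no value on any other array. IL2, the T cell growth factor, lay between -0.73 and 0.35. In the whole list of this receptor family, 9 genes were tested and none passed. The median of the means was -0.10 with 6 below 0. By time the median was 0.22 at 8 h with 4 of 9 below 0, and -0.06 at 12 h with 6 of 9 below 0. At 24 h it was -0.24 with 8 of 9 below 0, where all rows had a median of -0.02 and 53.6% below 0.

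The IL6 family signals through gp130, encoded by IL6ST, and is the best known growth signal of myeloma cells. IL6ST had values of 0.07 and -0.85 at 8 h, -1.05, -0.02 and 0.13 at 12 h, and -0.45, -0.10 and -0.24 at 24 h. The 3 arrays of run 2 gave the 3 lowest values, and the mean was -0.32 ± 0.18 (SE, n = 8). IL6R, the ligand-binding chain, was at 0.01 and -1.53 at 8 h, -0.63, 0.17 and 0.06 at 12 h, and 0.57, 0.17 and 0.26 at 24 h. Only 2 arrays of run 2 were below 0. Its 24 h mean exceeded the 8 h mean by 1.09 ± 0.48 (adjusted p = 0.99), and within run 3 the same difference was 0.16, against 2.10 within run 2. IL6 itself was at -0.34 and 1.32 at 8 h, 0.47, -0.04 and 0.09 at 12 h, and 0.02 and -0.30 on the 2 arrays with a value at 24 h, which straddle 0. IL11RA, the receptor chain for IL11, was above 0 on 6 of 7 arrays but within -0.13 to 0.44, and IL11 lay between -0.69 and 0.28.

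IL27RA, which pairs with gp130 to bind IL27, had the lowest mean of all tested members. Its values were -0.28 and -1.28 at 8 h, 0.47, -0.21 and -0.03 at 12 h, and -2.29, -0.27 and -0.76 at 24 h. It lay below 0 on 7 of 8 arrays, with its lowest and its highest value both in run 2. The mean was -0.60 ± 0.23 (SE, n = 8; limma adjusted p = 0.87), and at 24 h it was -1.11 ± 0.37 (adjusted p = 1.0). Within run 3 the 24 h value exceeded the 8 h value by 0.01, while within run 2 it was lower, at -1.02. The run 2 arrays did not hold the same features: 24 h sample 1 rests on a feature at -2.29 alone. That feature was at -1.71 on 8 h sample 2, averaged there with another at -0.85. On 12 h sample 1 the same features were at -0.13 and 1.07. The 2 features of IL27RA had means of -0.71 and -0.18.

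IL10, an anti-inflammatory cytokine, had the highest mean and the largest spread. Its values were -0.11 and 7.04 at 8 h, 1.78, -0.27 and -0.38 at 12 h, and 0.14, -0.23 and 0.41 at 24 h. The 2 arrays above 1 are both of run 2, and the other 6 lay between -0.38 and 0.41. The mean was 1.32 ± 0.65 (SE, n = 8; limma adjusted p = 0.87). The value of 7.04 averages 2 of the gene's 4 features, at 11.60 and 2.48 on that array; the feature at 11.60 had values on 2 arrays only, and the feature with the most values (6 arrays, none at 8 h sample 2) had a mean of 0.02. Without 8 h sample 1, which left 8 h sample 2 as the single array at 8 h, the mean was 2.51 with an adjusted p of 0.009, and 58 of all rows were then called; without the 3 arrays of run 2 it was -0.12. Its receptor chains stayed nearer 0 in the average of their features. IL10RA ranged from -0.39 to 0.38, but on 8 h sample 2 its features were at 0.673, -2.818 and 0.985. On 24 h sample 1 the features of IL10RB were at 0.685 and -0.907. IL10RB was at 0.02 and -0.04 at 8 h, 0.69, 0.10 and 0.43 at 12 h, and -0.11, -0.14 and 0.15 at 24 h, so only its 12 h arrays were all above 0 (12 h mean 0.41 ± 0.20, adjusted p = 0.93). IL19 and IL24, relatives of IL10, ran from -0.64 to 0.24 and from -0.04 to 0.67. The IL6 and IL10 family list had 11 genes tested, none passed, and the median of the means was 0.06 with 5 below 0.

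IL12A, the p35 subunit that IL12 and IL35 share, was at -0.39 and -0.70 at 8 h, -0.75, -0.65 and -0.23 at 12 h, and 0.20 and 0.08 on the 2 arrays measured at 24 h. In the gene's average, all 5 earlier arrays were below 0 and both 24 h arrays above it, with no overlap. The mean was -0.32 ± 0.14 (SE, n = 7), the 12 h mean -0.54 ± 0.21, and limma adjusted p 0.87 and 0.93. Its 2 features shared a single array, 24 h sample 3, where they stood at 0.35 and -0.19. The feature with 5 values supplied run 3 and 12 h sample 3, and the feature with 3 values, which was below 0 on each of them (-0.70, -0.75 and -0.19), supplied run 2. The change of sign at 24 h thus rests on the feature with 5 values. IL23A, which pairs with the p40 subunit to form IL23, ran from -0.38 to 1.45. Of the receptor for IL12, IL12RB1 was below -1 on 2 arrays of run 2 and at 1.37 on the third.

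IL3RA, the α chain of the IL3 receptor, was at 0.27 and 1.38 at 8 h, 0.16 and 0.01 at 12 h, and 0.02 and -0.51 at 24 h. In the gene's average the 8 h arrays were the 2 highest, and 24 h minus 8 h was -1.06 ± 0.48 (SE, n = 6; adjusted p = 0.99). Its features disagreed on the arrays at both ends. The value of 1.38 on 8 h sample 2 averages features at 3.377 and -0.625, and that of -0.51 on 24 h sample 3 averages 0.144 and -1.156. In the IL1 and IL18 family list 5 genes were tested and none passed, with a median of -0.04 and 3 below 0. IL1RAP, the shared accessory chain of IL1 receptors, was above 0 on 6 of 7 arrays and lay between -0.16 and 0.68. IL18RAP, the accessory chain of the IL18 receptor, was at 0.16 and 1.46 at 8 h and between -0.79 and 0.41 later. IL1B was not tested and had 5 values from -0.81 to 0.97.

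Among the chemokine ligands, CCL1, a ligand of CCR8, lay higher at 24 h than at its own earlier times. It was at 0.05 and -0.81 at 8 h, 0.30, 0.24 and 0.51 at 12 h, and 0.60 and 0.79 at 24 h. The 3 times did not overlap, and the 24 h mean was 0.69 ± 0.28 (SE, n = 2) and its difference from 8 h 1.08 ± 0.40 (limma adjusted p = 1.0 and 0.99). Within run 3, where the spread was small, the difference was 0.55. CCL1 rests on 1 feature. CXCL9, an interferon-induced ligand of CXCR3, was at -0.14 and 0.11 at 8 h, -0.29, -0.05 and -0.56 at 12 h, and -1.61, -0.03 and -0.34 at 24 h. It lay below 0 on 7 of 8 arrays, and its mean was -0.32 ± 0.19 (SE, n = 8), with the lowest value in run 2. That lowest value rests on a single feature.

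CXCL12, the stromal ligand of CXCR4, was at -0.16 and 1.33 at 8 h, 1.44, 0.08 and 0.33 at 12 h, and 0.31 and -0.17 at 24 h. The 2 values above 1 are of run 2, and the mean was 0.42 ± 0.24 (SE, n = 7). On 8 h sample 2 the average of 1.33 holds a feature at 8.01 beside 3 others between -1.09 and -0.70. With the median of features in place of their mean, the gene's mean was 0.01. CXCL2, a neutrophil attractant, was at 0.02 and 0.68 at 8 h, -0.20, 0.09 and -0.04 at 12 h, and -3.88, 0.03 and -0.43 at 24 h. Its value on 24 h sample 1 was the lowest of any member on that array and rests on a single feature. The other 7 arrays lay between -0.43 and 0.68. CCL3, a ligand of CCR1, was above 0 on 7 of 8 arrays but between 0.01 and 0.56 there, with -0.85 on 24 h sample 1. The value of 0.56, on 12 h sample 1, averages a feature at -0.912 and a feature at 2.035 that had no other value. CCL4 was at 1.76 on 8 h sample 2, where 1 feature with no other value stood at 7.79 and 4 others between -0.34 and 0.66. CXCL1, CXCL2 and CXCL3, and likewise CCL3 and CCL4 and their copies, are so alike in sequence that their features may take up each other's RNA, so their values are uncertain.

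Of the 11 chemokine receptors, 5 were tested. CXCR4, which binds CXCL12 and holds plasma cells in the marrow, was at -0.15 and 0.10 at 8 h, 0.19, -0.29 and -0.31 at 12 h, and -0.48, -0.35 and -0.61 at 24 h. The 3 arrays at 24 h were its 3 lowest, and no 24 h value overlapped the 8 h or 12 h values. Within run 3 the 24 h value lay below the 8 h value by a difference of -0.20, and within run 2 of -0.58. CXCR4's 8 features disagreed: the 4 with all 8 values had means of -0.05, -0.04, -0.37 and -0.64, and at 24 h sample 1 those 4 ran from -1.71 to 0.53. CCR1, a receptor for CCL3 and CCL5, was at -2.86 on 8 h sample 2, where 1 feature stood at -9.22, and between -0.97 and 0.58 elsewhere. CXCR5, CXCR2 and CXCR6 lay within -0.39 to 0.45. CCR7, which guides lymphocytes to lymph nodes, had 5 values from -0.41 to 0.07 and was not tested.

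**Figure D3:**
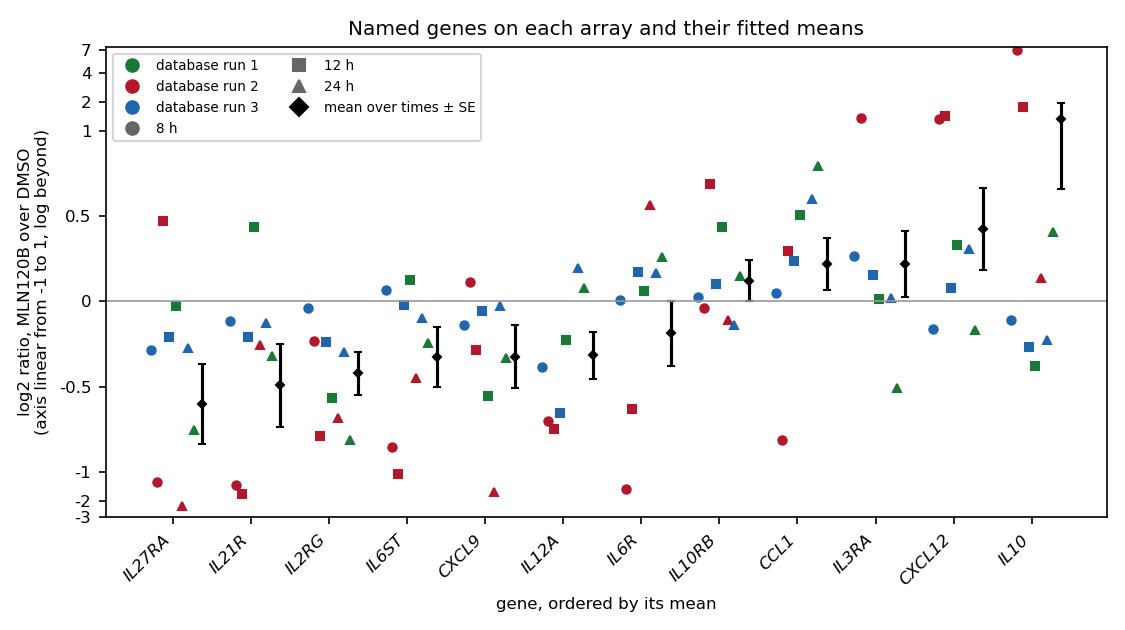
Log2 ratio (vertical axis, linear from -1 to 1 and logarithmic beyond) of the 12 genes chosen by the naming rule on each array, coloured by database run and shaped by time, with the fitted mean over the 3 times and its standard error as a black diamond. Run 2 arrays give most of the values farthest from 0; IL2RG lies below 0 on all 8 arrays, and IL10 reaches 7.04 on 8 h sample 2.

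The inhibited pathway is a known activator of many of these genes, so a list of textbook NF-κB target interleukins and chemokines was described by itself. Of its 33 genes, 30 had a value and 23 were tested. None passed; the median of the means was 0.04, with 11 below 0. The median lay at 0.11 at 8 h, 0.08 at 12 h and 0.07 at 24 h, and 24 h minus 8 h had a median of -0.28 with 16 of 23 below 0, against -0.04 and 54.1% for all rows. CXCL8, the classic NF-κB-induced neutrophil attractant, was at 0.05 and 0.42 at 8 h, 0.41, -0.09 and 0.17 at 12 h, and -0.41, -0.11 and -0.24 at 24 h. In the gene's average, both 8 h arrays were above 0 and all 3 arrays at 24 h below it, with the 12 h arrays on both sides. Its features disagreed: on 12 h sample 1 they were at -1.186, 0.927 and 1.487, and on 8 h sample 1 at 0.194, 0.198 and -0.249. The values on 24 h sample 1 and 24 h sample 3 rest on the same single feature, which was at 0.028 on 24 h sample 2. CCL20, which attracts cells through CCR6, ran from -0.14 to 0.63, CCL5 from -0.82 to 0.73, and CCL2 from -0.94 to 0.73.

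Promoter windows from 250 bases before to 50 after the start of transcription, from RefSeq on GRCh38.p14, were searched on both strands for the κB consensus. Of the 94 members, 77 had windows in the table, and 25 of those held a match (32.5%), beside 13.3% of 27305 genes; by window, which counts each start of a gene, the shares were 22.3% of 112 and 11.3% of 35116. A match is a run of letters and not a shown binding site. The 7 stretches below were picked after the values were seen: 6 belong to textbook targets, a choice among those with a match, and 1 to IL27RA, the member with the lowest mean. They show 1 match per gene, with the matching bases in capitals, 5′ to 3′ on the gene's strand.
CXCL1 (chr4:73869294-73869343, plus strand): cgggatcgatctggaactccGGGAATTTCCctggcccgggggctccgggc
CXCL2 (chr4:74099244-74099293, minus strand): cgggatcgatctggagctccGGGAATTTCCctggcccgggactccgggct
CXCL3 (chr4:74038739-74038788, minus strand): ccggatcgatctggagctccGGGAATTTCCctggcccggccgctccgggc
IL6 (chr7:22727107-22727156, plus strand): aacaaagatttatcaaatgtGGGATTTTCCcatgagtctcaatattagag
IL2RA (chr10:6062549-6062598, minus strand): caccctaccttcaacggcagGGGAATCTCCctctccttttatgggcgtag
IL27RA (chr19:14031674-14031723, plus strand): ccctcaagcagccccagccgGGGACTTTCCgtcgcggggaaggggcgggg
IL12A (chr3:159988771-159988820, plus strand): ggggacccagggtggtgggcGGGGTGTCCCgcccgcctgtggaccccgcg
CXCL1, CXCL2 and CXCL3 hold the same 10 bases. Their ratios differed by array: at 12 h sample 1 CXCL1 was at 0.15, CXCL2 at -0.20 and CXCL3 at 1.33. The 17 tested genes with a match had a median mean of -0.05, with 9 below 0, and the 34 with windows but no match had -0.03, with 19 below 0. At 24 h the medians were -0.04 and -0.06. The window of IL2RG, the gene below 0 on every array, held no match.

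Array by array, the members' median lay farthest from that of all rows on 2 arrays, given here as a description with no test. At 12 h sample 3, 66 of 94 members were below 0 and their median was -0.26, against -0.02 for all rows. At 12 h sample 1 the members lay the other way, 35 of 58 above 0 with a median of 0.29, against 0.04. These 2 arrays are the same treatment time in different runs. On the other 6 arrays the members' median stayed between -0.17 and 0.11.

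**Figure D4:**
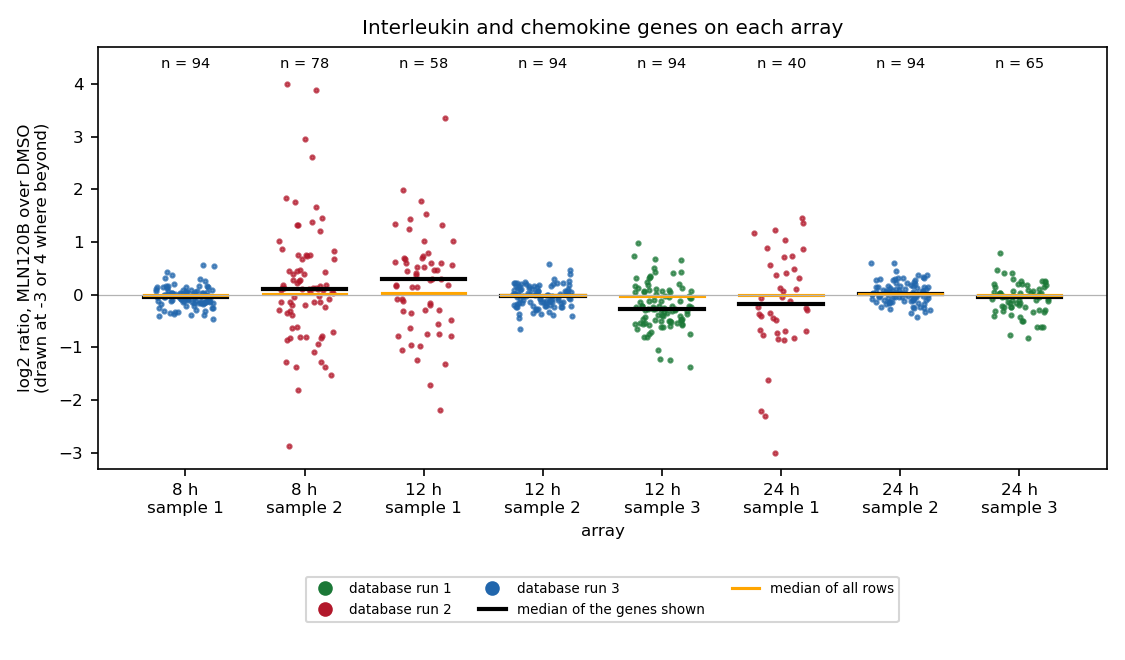
Log2 ratio (vertical axis; values beyond -3 or 4 are drawn there) of every member with a value on each array (points, coloured by database run, n above), with the median of the members in black and of all rows in orange. The members' median is lowest at 12 h sample 3 (-0.26) and highest at 12 h sample 1 (0.29), and the points spread most on run 2 arrays.

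The level of both members and other rows on these arrays differed by how often a gene could be measured, while the gap between them hardly did. All 94 members had values on the 3 arrays of run 3 and on 12 h sample 3, but 83.0%, 61.7% and 42.6% had one on 8 h sample 2, 12 h sample 1 and 24 h sample 1, where 87.7%, 75.4% and 62.0% of all named genes did, and 69.1% on 24 h sample 3 against 84.4%. In the 43 members with 4 to 6 values, 38 were below 0 at 12 h sample 3 with a median of -0.45, and all rows with 4 to 6 values had a median of -0.26 there, 71.2% of them below 0. In the 51 members with 7 or 8 values the median was -0.04 and 28 were below 0, against 0.12 and 38.3% of rows. At 12 h sample 1 the 8 measured members with 4 to 6 values had a median of 0.90 and all such rows 0.66, and the 50 measured members with 7 or 8 values had 0.16 against -0.09. Genes on a single side of 0 were also found among those measured on few arrays. Of the 43 members with 4 to 6 values, 6 were below 0 on every measured array (CCL19, CXCL13, CXCL6, CXCR1, IL17C and IL36G), or 14.0% against 6.91% of such rows, and 0 were above, against 3.71% of rows. CXCL6, for example, was at -0.12, -0.44, -0.45 and -0.43, and CXCR1, a receptor for CXCL8, at -0.40, -0.36, -0.47 and -0.04. The part of sparse measurement in these counts was not tested.

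Several of the largest ratios of members held a feature far from the gene's other features. Of 286 member features with a value, 58 had one on 3 or fewer arrays. A size over 4 occurred in 6 of 174 member features on 8 h sample 2 (3.45%, against 1.74% of all features), 1 of 110 on 12 h sample 1 (0.909%, against 1.14%) and 1 of 226 on 12 h sample 3 (0.442%, against 0.171%), and in 0 on the other 5 arrays. Member features were counted after centring on the array median, and all features before it. The deposited medians were -0.10 on 8 h sample 2, -0.38 on 12 h sample 1 and -0.15 on 12 h sample 3. The 6 member features of this size on 8 h sample 2 belong to IL10, CXCL12, CCL4, CCR1, IL2RA and IL4. The average of the gene's other features had the same sign in 4 of these 6. It was 3.10 in IL4 beside 4.68, 2.48 in IL10 beside 11.60, -1.27 in CCR1 beside -9.22 and 0.26 in CCL4 beside 7.79. IL4 and IL10 had 1 other feature there. The other features lay on both sides of 0 in CCR1 (-2.015 to 0.106) and CCL4 (-0.336 to 0.655). In CXCL12 the other features on the array averaged -0.90, opposite in sign to the feature at 8.01, and in IL2RA they averaged 0.50, opposite to a feature at -6.44. In IL2RB, where 12 h sample 1 stood at 1.99, a feature at 4.23 lay beside another at -0.25. In IL4R, where 12 h sample 3 stood at -1.37, a feature at -6.14 lay beside 4 that averaged -0.18.

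The genes downstream of and next to these receptors were given from lists. Of the JAK kinases, STAT factors, their suppressors and adaptors, 23 were tested, none passed, and the median of the means was -0.09 with 15 below 0. STAT3, the main STAT of gp130 signalling, was below 0 on 7 of 8 arrays, from -1.27 to 0.21, with a mean of -0.35 ± 0.17 (SE, n = 8). SOCS1, a feedback suppressor of JAK kinases, was also below 0 on 7 of 8, with a mean of -0.32 ± 0.17, while CISH, a suppressor induced by STAT5, was above 0 on 7 of 8, with a mean of 0.32 ± 0.16. IRS1, an adaptor of the IL4 and insulin receptors, was above 0 on all 8 arrays, from 0.02 to 2.06. The lists of IL1 receptor and Toll adaptors (7 tested, median -0.10, 6 below 0), chemokine signalling and atypical receptors (20 tested, median 0.02, 9 below 0) and other haematopoietic cytokines (15 tested, median 0.03, 7 below 0) also had no gene that passed. STAT3, SOCS1, CISH and IRS1 are named after their values were seen.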

How the data were processed

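The deposited table holds 1 value per feature for each of 8 arrays. The deposited values are log2 ratios as far as the values show; base 2 was read from the values of 1 array and assumed for the others, and the direction is not stated. The authors' scanning, background correction and normalization are unknown, since none of the labels or headers records them. Of 15246 features, 10169 had 1 gene in the platform annotation, 4 several and 5073 none listed; 10128 symbols were updated by Entrez ID and 17 by accession, and 24 kept as listed. Each array was centred on its median and features were averaged by gene; features without a gene stayed as rows.

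Means per time were fitted with limma 3.58.1 (R 4.3.3) on the 5411 rows measured on 2 or more arrays of every time, with 5 residual degrees of freedom and Benjamini-Hochberg adjustment over all rows at 0.05. The same limma model gave every adjusted p, including those with n under 10; because the control is the other dye of each array, the spread of control samples does not enter. The number of arrays limits the precision. The fit was tested on simulated data. Alternatives were centring, scaling, filters on missing values, the median of features, database run or sample number as a block, array weights, another variance model and leaving out arrays.

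Fitted means are printed for IL2RG and IL10, for the 8 tested members with the smallest p for the mean over times, and for the 3 with the smallest p at 12 h, at 24 h and for 24 h minus 8 h, and for STAT3, SOCS1 and CISH, named after their values were seen. The members and lists were chosen with earlier results of these data known. Sample numbers were checked as pairs by correlating deviations from the time means over 3460 rows. Same-numbered 12 h and 24 h arrays, which also share a database run, gave 0.20, 0.26 and 0.29. The 8 h arrays gave -0.32 to -0.15 with same-numbered partners of another run, and 0.15 to 0.32 with arrays of their own run. With 2 arrays at 8 h, these values mirror each other in sign. The sample numbers are thus not shown to pair arrays beyond a shared run. Promoters were searched in Python 3.11.15.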

Additional observations from a re-analysis of the deposited data

Results flagged for a closer look

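IL12A was below 0 on every 8 h and 12 h array with a value and above 0 on both 24 h arrays with a value, in the average of its features. On 24 h sample 3 that average joins a feature at 0.35 and another at -0.19, so the change of sign rests on 1 of its 2 features. The 24 h mean exceeded the 8 h mean by 0.68 ± 0.36 (SE, limma adjusted p = 0.99) and the 12 h mean by 0.68 ± 0.33 (adjusted p = 1.0), so neither difference passed the test. Within run 3, which measured the same feature at all 3 times, 24 h exceeded 8 h by 0.58 and 12 h by 0.85.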

How the results depend on the processing

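The count of members called was 0 in all 7 comparisons under every alternative except leaving out 8 h replicate 1, which left 1 array of run 2 at 8 h, assumed to vary like the other times. Over the arrays left out in turn, the count ran from 0 to 1 for the mean over times (IL10), 0 to 3 at 8 h (CCL4, CCR1 and IL10), 0 to 1 for 24 h minus 8 h and 0 to 1 for 12 h minus 8 h (IL10). With 8 h replicate 1 left out, 131 of all rows were called at 8 h. The median of the members ran from -0.10 with values as deposited, where all rows had -0.12, to 0.06 without 12 h replicate 3. With sample number as a replicate block, the fit paired by number, it was -0.05, and the block changed no call. With database run as a fixed block, which ties the 8 h arrays too, it was -0.02, and 6 of all rows but 0 members were called for the mean over times.

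IL2RG stayed below 0 in all 20 alternatives, from -0.55 to -0.33. IL10 ran from 0.12 without 8 h replicate 2 to 2.51 without 8 h replicate 1, and was -0.12 without database run 2. IL10RB was -0.007 with values as deposited. IL6R was 0.11 without database run 2 and ran from -0.44 to 0.068 over the arrays left out, the last without 8 h replicate 2. Leaving out an array moved other means toward 0 by over 1.5 times: IL6ST to -0.17 and -0.20 without 8 h replicate 2 and 12 h replicate 1, IL10RB to 0.075 without 12 h replicate 1, CCL1 to 0.08 without 8 h replicate 1, CXCL12 to 0.17 and IL3RA to 0.04 without 8 h replicate 2, CXCL9 to -0.17 without 24 h replicate 1, and IL21R to -0.28 and -0.29 without 8 h replicate 2 and 12 h replicate 1. Others moved away from 0: CCL1 to 0.36 without 8 h replicate 2, and CXCL12 to 0.67 and IL3RA to 0.41 without 8 h replicate 1. Without database run 2, IL6ST was -0.016, IL21R -0.076, CXCL12 0.037, IL3RA 0.035, CXCL9 -0.21, IL27RA -0.31 and CCL1 0.37. Quantile normalization gave CCL1 0.66 and IL12A -0.48. The causes were not tested.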
